A study of Mus musculus with 6 samples.

Results

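The let-7 and miR-98 family was examined in a cultured mouse epicardial cell line, the cell type that covers the outside of the heart. KO cells received a lentivirus with an sgRNA against Hdac3 for CRISPR/Cas9 knockout (3 libraries). EV cells, their control, received an empty-vector lentivirus (3 libraries). Hdac3 encodes a histone deacetylase that works inside co-repressor complexes, and the series title asks how it connects epicardial cells to growth of the heart muscle through a microRNA pathway. The labels do not say whether KO cells were a single clone or a pool, or whether EV cells carried Cas9. The labels give no strain or age of origin, and all 6 libraries share the line, the serum-containing medium and the library kit. Small-RNA reads do not cover the Hdac3 mRNA or the protein-coding markers of epicardium, so neither the knockout nor the cell type was checked here. Members were chosen by name alone, as every count row named let-7a to let-7g or let-7i, with any copy number and arm, plus the 2 arms of miR-98. This gave 20 of the 1028 mature microRNAs counted, 9 guide arms (5p) and 11 passenger arms (3p).

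A let-7 hairpin is cut by Drosha and then Dicer into a short duplex, of which the 5p strand usually enters Argonaute and guides repression of mRNAs that match its seed, while the 3p passenger strand is usually discarded. The family is known for holding cells in a differentiated state by repressing growth genes such as Hmga2, Myc and Ras genes, and LIN28 proteins block the processing of its precursors in early cells. In the heart, let-7 levels are known to climb as cardiomyocytes mature.

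All 9 guide arms have the same seed, so the mature sequences are shown for what sets members apart outside it. They come from RefSeq (GRCm38.p6), in which 20 of 20 members were found. Capitals mark the seed, bases 2 to 8.
let-7a-5p: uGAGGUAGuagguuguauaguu
let-7b-5p: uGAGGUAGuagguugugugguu
let-7c-5p: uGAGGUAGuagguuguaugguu
let-7d-5p: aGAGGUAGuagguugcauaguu
let-7e-5p: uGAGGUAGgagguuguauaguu
let-7f-5p: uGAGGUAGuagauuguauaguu
let-7g-5p: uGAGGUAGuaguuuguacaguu
let-7i-5p: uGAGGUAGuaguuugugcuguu
miR-98-5p: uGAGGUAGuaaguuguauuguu

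Each guide arm is 22 bases long. Counted from 1 at the 5′ end, with the let-7a-5p base first, let-7f-5p differs from let-7a-5p by G12A, let-7c-5p by A19G and let-7e-5p by U9G. let-7g-5p carries G12U and U18C, miR-98-5p G11A and A19U, and let-7i-5p 4 differences (G12U, A17G, U18C and A19U). let-7d-5p differs at its first base as well (U1A and U16C). Of the 36 pairs of guide arms, 4 differ by 1 base only. The sources used here do not say how reads were divided between such close names, so levels of let-7a-5p, let-7b-5p, let-7c-5p, let-7e-5p and let-7f-5p may share some misassigned reads.

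The 6 libraries held 11824881 to 13412774 counts. Levels are given as CPM, counts per 1000000 tested counts after scaling by the trimmed mean of M values (TMM), and 1 read equalled 0.0637 to 0.0892 CPM. The TMM factor was 1.23 in EV 1 and 0.919 to 1.04 in the other 5 libraries. miR-451a, a red blood cell microRNA, reached 62.7 CPM in KO 2 and 54.7 CPM in EV 3, against at most 2.45 CPM elsewhere, while its cluster partner miR-144-3p was at 0 in 5 of the 6. The neural miR-9-5p was also highest in KO 2 (57.1 CPM) and EV 3 (51.4 CPM), and the neural miR-124-3p stayed at or below 0.718 CPM. The endothelial miR-126a-3p averaged 31.8 ± 0.112 CPM in KO and 35.8 ± 3.10 CPM in EV (SD, n = 3 each). The part of these differences in the results below was not tested, other than by leaving out EV 3 and KO 2. Nothing in the labels ties the replicates to separate dishes. The p-values therefore reflect only how far these libraries scatter, which may be technical. In a bulk culture, a lower level in every cell and fewer cells with that level cannot be told apart.

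No let-7 or miR-98 guide arm was called different between KO and EV cells. Guide arms together took 3.56%, 3.77% and 3.42% of all counts in KO 1, KO 2 and KO 3, against 4.04%, 3.88% and 3.59% in EV 1, EV 2 and EV 3. The ranges overlap. Of the 9 guide arms tested, 0 passed an adjusted p of 0.05 in edgeR's quasi-likelihood test, where 7.61% of all 460 tested microRNAs did. DESeq2 and limma-voom also called 0. At an unadjusted p under 0.05 there was 1, let-7f-5p, where 23% of all tested microRNAs passed. The guide arms had a median log2 change of 0.05, beside -0.01 over all tested microRNAs. Their summed level had a log2 change of 0.05 with TMM, which turned to -0.10 with library size alone, to -0.05 with library sizes without miR-21a-5p and to -0.02 without EV 1. Library size alone moved the median of all microRNAs to -0.16, and sizes without miR-21a-5p moved it to -0.11. The summed guide arms lay above that median under each of these scalings. Without EV 1 the median was 0.003, and the summed guide arms lay below it.

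**Figure D1:**
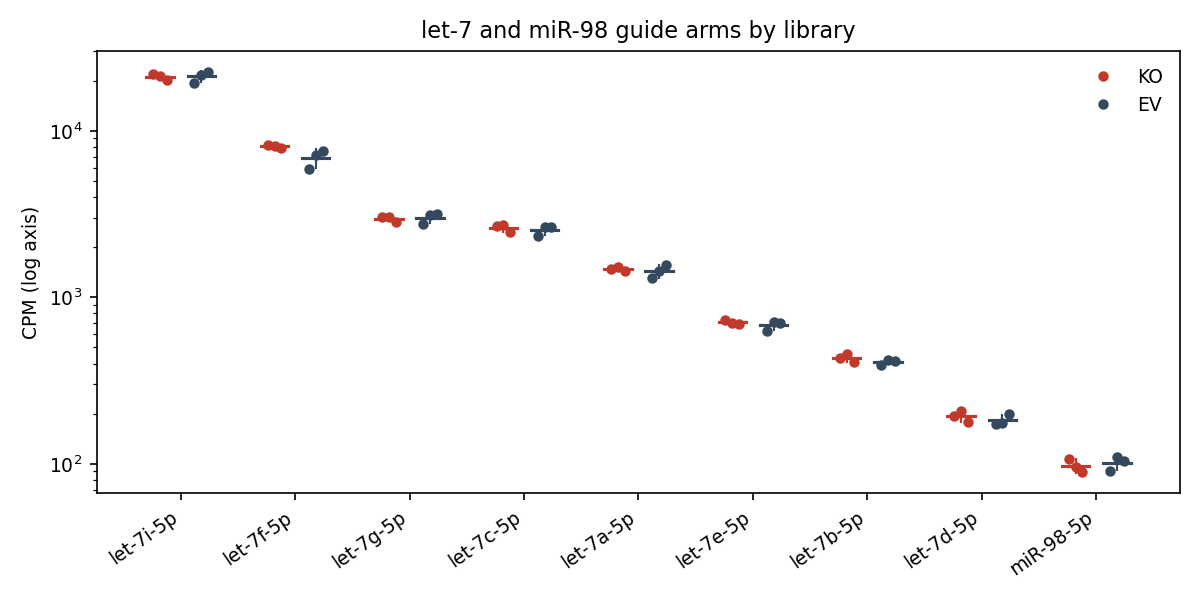
CPM (log axis) of the 9 guide arms in each library, KO left of EV; points are libraries, horizontal lines means and vertical lines SD (n = 3). Groups overlap for all guide arms except let-7f-5p, which lay at 7891 to 8228 CPM in KO and 5878 to 7593 CPM in EV.

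let-7i-5p was the most abundant member, with KO 1, KO 2 and KO 3 at 21822, 21446 and 20212 CPM and EV 1, EV 2 and EV 3 at 19408, 21647 and 22633 CPM. The KO libraries all fell inside the EV range. Its log2 change was -0.00 (SE 0.09, 95% interval -0.21 to 0.21, edgeR adjusted p = 0.978). The hairpin lies in an exon of the transcribed pseudogene D630033A02Rik on chromosome 10 (122985640 to 122985724, minus strand, GRCm38).

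let-7f-5p, made from hairpins on chromosomes 13 and X, was second in level. KO 1, KO 2 and KO 3 held 8228, 8105 and 7891 CPM of it, and EV 1, EV 2 and EV 3 held 5878, 7158 and 7593 CPM. Every KO library was above every EV library, and the EV libraries were the more scattered. Its log2 change was 0.23 (SE 0.10, 95% interval 0.00 to 0.46, unadjusted p = 0.0461, edgeR adjusted p = 0.209), so it was not called. It was 1 of 9 guide arms whose groups did not overlap in CPM, a pattern seen in 29.1% of all tested microRNAs. Without EV 1, the library with the TMM factor of 1.23, the log2 change was 0.13 (edgeR adjusted p = 0.319), and with library size alone it was 0.09 (edgeR adjusted p = 0.573). Without both EV 3 and KO 2, the libraries high in miR-451a, it was called at 0.31 (edgeR adjusted p = 0.0458). That fit called 88 of 470 tested microRNAs, against 35 of 460 in the main fit. For let-7f-5p, adjusted p ran up to 0.573 over the 15 alternatives.

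The levels of the other guide arms, over all 6 libraries, ran in the order let-7g-5p (2744 to 3161 CPM), let-7c-5p (2338 to 2717 CPM), let-7a-5p (1307 to 1561 CPM), let-7e-5p (625 to 734 CPM), let-7b-5p (394 to 456 CPM), let-7d-5p (174 to 208 CPM) and miR-98-5p (88.9 to 110.1 CPM). Ranges of neighbours in this order did not overlap, let-7g-5p and let-7c-5p being the closest. Adaptor ligation favours some sequences, so the order of reads need not be the order of molecules. let-7g-5p, from an intron of the chromatin gene Wdr82 on chromosome 9, averaged 2967 ± 100.3 CPM in KO and 3012 ± 233 CPM in EV (SD, n = 3 each). let-7c-5p averaged 2618 ± 134 CPM in KO and 2544 ± 179 CPM in EV, and let-7a-5p 1482 ± 42.8 CPM in KO and 1434 ± 127 CPM in EV (SD, n = 3 each). Both have duplicate hairpins, whose identical 5p arms cannot be told apart.

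let-7e-5p, which differs from the rest beside the seed, averaged 708 ± 22.5 CPM in KO and 679 ± 47.0 CPM in EV (SD, n = 3 each). let-7b-5p averaged 432 ± 24.2 CPM in KO and 409 ± 13.2 CPM in EV (SD, n = 3 each). For let-7d-5p the means were 192.9 ± 15.05 CPM in KO and 183 ± 14.1 CPM in EV, and for miR-98-5p 97.2 ± 9.45 CPM in KO and 101.7 ± 10.3 CPM in EV (SD, n = 3 each). Groups overlapped for each of these 7 guide arms. With let-7i-5p they make 8 guide arms whose log2 changes ran between -0.07 (miR-98-5p) and 0.08 (let-7b-5p), with edgeR adjusted p of at least 0.531. Their 95% intervals together spanned -0.32 to 0.27, that is 0.804-fold to 1.21-fold. Larger changes than these bounds lay outside the interval of each of the 8.

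**Figure D2:**
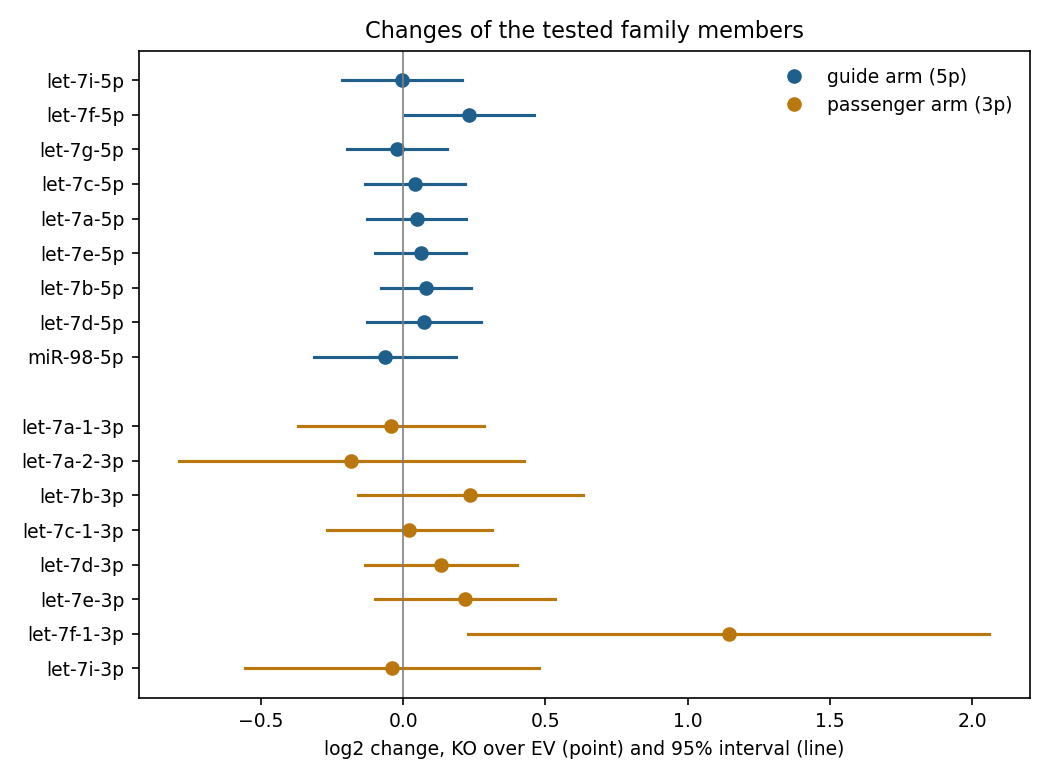
Log2 change of KO over EV from edgeR (points) with 95% intervals (lines) for the 9 guide arms, in order of level, and the 8 tested passenger arms. The intervals of let-7f-5p (0.00 to 0.46) and let-7f-1-3p (0.23 to 2.06) lie above 0, and neither passed after adjustment.

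Within the family, levels were also set against each other as shares, the reads of a member per 100 guide-arm reads of the same library, so that no scaling factor between libraries enters. The shares were looked at after the values were seen and carry no test. let-7f-5p took 21.3%, 21.2% and 21.8% of the guide reads in KO 1, KO 2 and KO 3, against 17.8%, 19.1% and 19.5% in EV 1, EV 2 and EV 3. let-7i-5p took 56.4%, 56.0% and 55.8% in the KO libraries, against 58.9%, 57.8% and 58.0% in the EV libraries. The share of let-7f-5p was higher in every KO library, and that of let-7i-5p lower in every KO library. let-7g-5p also had a lower share in each KO library, at 7.86% ± 0.0296 in KO and 8.26% ± 0.144 in EV (SD, n = 3 each). Groups overlapped for the other 6 guide arms, let-7a-5p for example at 3.93% ± 0.0821 in KO and 3.93% ± 0.0885 in EV. Shares add up to a whole, so a larger share of let-7f-5p lowers the others, and the 3 guide arms without overlap are not 3 separate observations. Groups that do not overlap were common among all tested microRNAs, at 29.1% in CPM and 24% per let-7i-5p read.

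**Figure D3:**
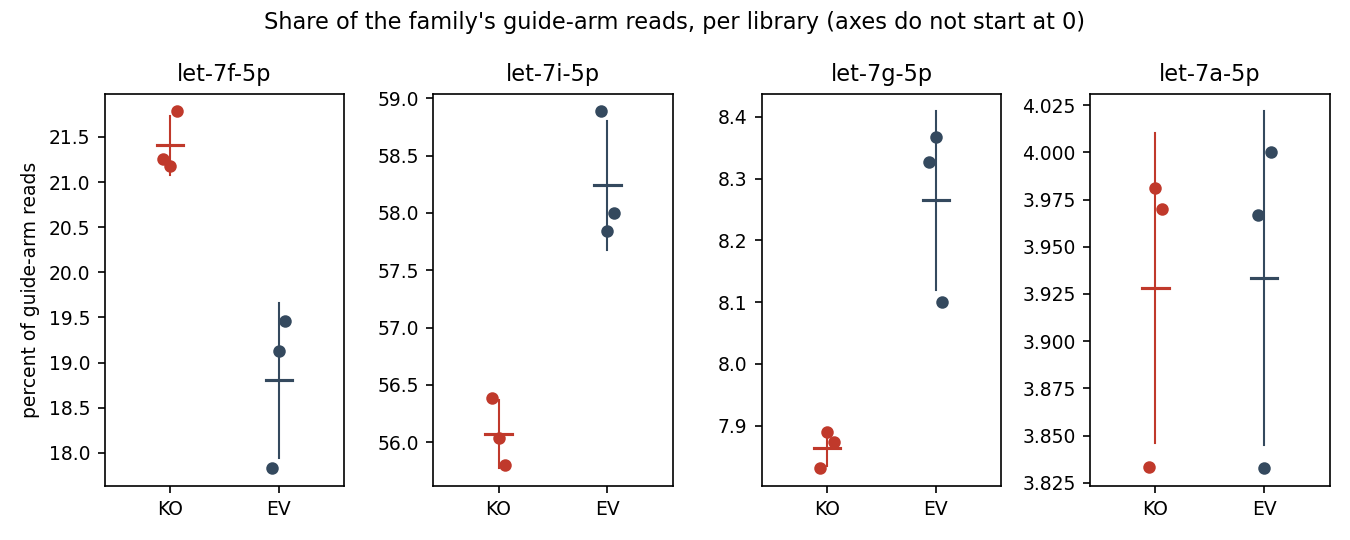
Percent of the family's guide-arm reads taken by let-7f-5p, let-7i-5p, let-7g-5p and let-7a-5p in each library, KO left of EV; horizontal lines are means and vertical lines SD (n = 3), and the axes do not start at 0. let-7f-5p lies at 21.2% to 21.8% in KO and 17.8% to 19.5% in EV, while let-7a-5p overlaps.

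Ratios of reads within a library need no scaling factor either. There were 0.377, 0.378 and 0.390 let-7f-5p reads per let-7i-5p read in KO 1, KO 2 and KO 3, against 0.303, 0.331 and 0.336 in EV 1, EV 2 and EV 3. Against let-7a-5p, from which it differs by 1 base and with which it shares the chromosome 13 cluster, there were 5.45 ± 0.117 reads in KO and 4.78 ± 0.257 in EV (SD, n = 3 each). Neither ratio overlapped between the groups. Per let-7d-5p read, the third product of that cluster, there were 41.998 ± 2.74 let-7f-5p reads in KO and 37.5 ± 3.50 in EV (SD, n = 3 each), and the groups overlapped. These ratios were likewise chosen after the values were seen and carry no test. Of the 8 guide arms other than let-7i-5p, 2 had non-overlapping groups per let-7i-5p read (let-7f-5p and let-7c-5p), as did 24% of the 459 tested microRNAs other than let-7i-5p. That count is near the background and singles out no member. For let-7c-5p the groups were barely apart. Its nearest libraries were KO 3, with 30101 let-7c-5p and 246798 let-7i-5p reads, and EV 2, with 32317 and 265197.

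Passenger arms were far scarcer than guide arms. They summed to 1278, 1367 and 1315 reads in KO 1, KO 2 and KO 3, and 1619, 1166 and 1139 reads in EV 1, EV 2 and EV 3. Of the 11 passenger arms 8 passed the filter on low counts, and 0 of these were called by edgeR (7.61% of all tested) or limma-voom. DESeq2 called 0 as well, but gave let-7a-2-3p and let-7f-1-3p no adjusted p. At an unadjusted p under 0.05 there was 1, let-7f-1-3p, where 23% of all tested microRNAs passed. Groups did not overlap for 1, let-7e-3p, where 29.1% of all tested microRNAs did not overlap. With 8 arms tested, neither count can be told from the background. The median log2 change was 0.08. The summed level lay at 103.6 to 109.0 CPM in KO and 95.2 to 103.1 CPM in EV, so the groups did not overlap. Its log2 change was 0.10 with TMM factors, which turned to -0.05 with library size alone and to -0.00 with library sizes without miR-21a-5p.

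let-7d-3p was the passenger arm with the most reads and took 47.9% ± 1.78 of passenger reads in KO and 46.6% ± 3.23 in EV (SD, n = 3 each). KO 1, KO 2 and KO 3 held 50.4, 53.6 and 49.4 CPM of it, against 47.2, 41.7 and 51.0 CPM in EV 1, EV 2 and EV 3, with overlapping groups. The log2 change was 0.13 (SE 0.12, edgeR adjusted p = 0.534), and it lay between 0.03 (without EV 2) and 0.20 (without EV 3) when 1 library was left out. For its guide arm let-7d-5p that range was 0.02 (without EV 2) to 0.14 (without EV 3). let-7e-3p had 7.78, 8.38 and 7.94 CPM in KO 1, KO 2 and KO 3 and 7.58, 6.69 and 6.43 CPM in EV 1, EV 2 and EV 3. Its log2 change was 0.22 (SE 0.14, edgeR adjusted p = 0.381). All KO values lay above the EV values, by as little as the gap between 7.78 and 7.58 CPM.

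let-7f-1-3p, the passenger arm of the chromosome 13 copy of let-7f, had the widest change and few reads. It had 31, 38 and 15 reads in KO 1, KO 2 and KO 3, against 16, 17 and 7 reads in EV 1, EV 2 and EV 3. The groups overlapped, since KO 3 (1.23 CPM) lay below EV 2 (1.39 CPM). Its log2 change was 1.14 (SE 0.41, 95% interval 0.23 to 2.06, unadjusted p = 0.0190, edgeR adjusted p = 0.131). It was called with the replicate number as a block (edgeR adjusted p = 0.0344) and without the filter (edgeR adjusted p = 0.0219), while adjusted p ran up to 0.352 over the alternatives. The block fit called 34 of 460 tested microRNAs, and the fit without the filter called 56 of 1028. Without EV 3 and KO 2 the log2 change was 0.66. let-7f-2-3p, the arm that is particular to the X-linked copy, had 9, 4 and 3 reads in KO 1, KO 2 and KO 3 and 10, 9 and 6 reads in EV 1, EV 2 and EV 3, too few to pass the filter.

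Passenger arms can tell duplicate loci apart, which guide arms cannot, and their sequences show where this fails. Capitals mark bases that differ from let-7a-1-3p.
let-7a-1-3p: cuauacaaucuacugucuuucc
let-7c-2-3p: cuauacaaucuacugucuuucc
let-7f-1-3p: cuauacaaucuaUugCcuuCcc
let-7f-2-3p: cuauacaGucuacugucuuuc
RefSeq gives let-7a-1-3p and let-7c-2-3p the same letters, although their hairpins lie on chromosomes 13 and 15, and the counts have a row for let-7a-1-3p only. Its level can therefore include reads of both loci, though the sources used here do not say how such reads were counted. Over its 21 bases let-7f-2-3p differs from let-7a-1-3p by A8G, and it lacks the last of the 22 bases. let-7f-1-3p differs from let-7a-1-3p by C13U, U16C and U20C. The let-7a-1-3p base is given first.

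let-7a-1-3p averaged 13.7 ± 1.18 CPM in KO and 14.1 ± 1.41 CPM in EV (SD, n = 3 each; log2 change -0.04, SE 0.15). The other let-7a copy, let-7a-2-3p on chromosome 9, had 19, 22 and 28 reads in KO 1, KO 2 and KO 3 and 27, 32 and 23 reads in EV 1, EV 2 and EV 3. Most reads that can be assigned to a let-7a passenger arm thus carried the sequence shared by the chromosome 13 and 15 hairpins. let-7c-1-3p, which is particular to chromosome 16, averaged 11.8 ± 0.223 CPM in KO and 11.6 ± 0.318 CPM in EV (SD, n = 3 each; log2 change 0.02, SE 0.13). let-7b-3p averaged 6.39 ± 0.553 CPM in KO and 5.42 ± 1.03 CPM in EV, and let-7i-3p 10.4 ± 2.34 CPM in KO and 10.7 ± 3.01 CPM in EV (SD, n = 3 each). Their groups overlapped, and edgeR adjusted p was 0.464 for let-7b-3p and 0.951 for let-7i-3p. miR-98-3p had at most 12 reads and let-7g-3p at most 4 reads in any library, and neither was tested.

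The ratio of guide to passenger reads differed between names by orders of magnitude, while KO and EV overlapped for each name. Passenger reads were summed over the rows of a name. let-7d yielded 3.77 ± 0.150 guide reads per passenger read in KO and 3.95 ± 0.265 in EV (SD, n = 3 each). let-7b, let-7a, let-7e, miR-98 and let-7c lay next, with means between 67.9 for let-7b and 222 for let-7c in KO and between 77.6 for let-7b and 219 for let-7c in EV. let-7a had a higher mean ratio than let-7e in KO (96.0 against 88.3) but not in EV (88.95 against 99.3). For let-7c the guide reads come from both hairpins and the passenger reads from let-7c-1-3p only, and the let-7a passenger reads can include those of let-7c-2-3p, so these ratios are not yields of single hairpins. let-7i had 2104 ± 503 in KO and 2114 ± 673 in EV, and let-7f, both copies summed, 3436 ± 1661 in KO and 4489 ± 1783 in EV (SD, n = 3 each). let-7g stood highest, at 16408 ± 4160 in KO and 18594 ± 14584 in EV (SD, n = 3 each), on 1 to 4 passenger reads a library. Groups overlapped for all 9 names. Over the whole family there were 354 ± 18.7 guide reads per passenger read in KO and 366 ± 40.1 in EV (SD, n = 3 each).

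**Figure D4:**
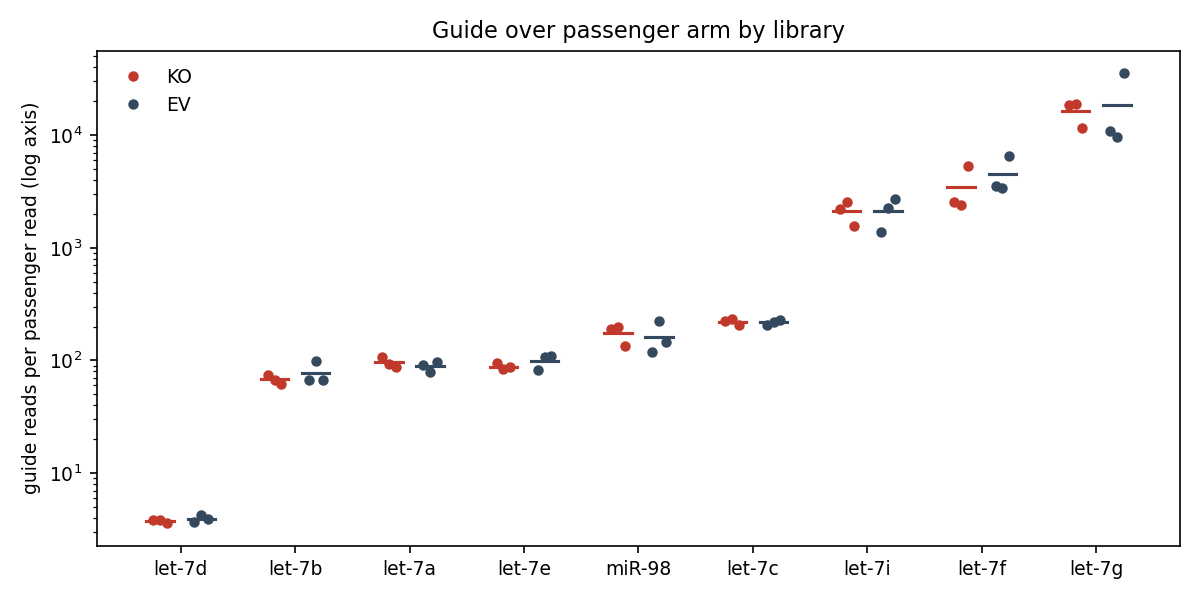
Guide-arm reads per passenger-arm read (log axis) for each name, over the passenger arms that have a row (let-7c-1-3p alone for let-7c), KO left of EV; points are libraries and horizontal lines means (n = 3). let-7d lies near 4 and let-7g at 9592 or more in every library, and the groups overlap for all 9 names.

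Whether guide and passenger arms of a name changed unequally was tested with limma's diffSplice, in which a shared scaling factor cancels. Of 7 family names with both arms tested 0 were called, and 0% of 150 names were called over all microRNAs, with 17 of 309 arms at an unadjusted p under 0.05, none of them in this family. The widest difference was in let-7f, where the passenger arm let-7f-1-3p exceeded let-7f-5p by 0.85 in log2 change (SE 0.45, limma adjusted p = 0.879). In let-7b and let-7e the passenger arm exceeded the guide arm by 0.17 (SE 0.19) and 0.15 (SE 0.16). In let-7d the difference was 0.06 (SE 0.14), and in let-7i and let-7c it was -0.04 (SE 0.23) and -0.02 (SE 0.15). let-7a-5p exceeded its 2 passenger arms combined by 0.11 (SE 0.15), with the limit on let-7a and let-7c passenger reads given above.

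The family comes from 12 hairpins on 7 chromosomes, and members of a cluster can share a primary transcript. Mirlet7a-1, Mirlet7f-1 and Mirlet7d lie within 2261 bp on chromosome 13 (48536012 to 48538272, minus strand, GRCm38), in exons of the long noncoding RNA 6720427I07Rik. Products that can only come from that cluster, let-7d-5p, let-7d-3p and let-7f-1-3p, had log2 changes of 0.07 (SE 0.09), 0.13 (SE 0.12) and 1.14 (SE 0.41). Mirlet7f-2 and Mir98 lie within 976 bp in an intron of Huwe1, a ubiquitin ligase gene, on chromosome X (151912346 to 151913321, plus strand). miR-98-5p, which can only come from there, had a log2 change of -0.07 (SE 0.11). Mirlet7c-2 and Mirlet7b lie within 801 bp in exons of the noncoding gene Lncppara on chromosome 15 (85706603 to 85707403, plus strand), and let-7b-5p had a log2 change of 0.08 (SE 0.07). No test compared these clusters with each other.

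Other let-7 hairpins sit beside miR-99, miR-100 and miR-125 hairpins. Of 11 such neighbouring arms, all tested, 0 were called by edgeR (7.61% of all tested microRNAs were), DESeq2 or limma-voom. In edgeR 3 had an unadjusted p under 0.05, near the background of 23% of all tested microRNAs. Those 3 come wholly or in part from the Mir99ahg locus on chromosome 16, which also holds Mirlet7c-1. miR-99a-5p, of a family known to repress mTOR, had 10125, 11632 and 10383 CPM in KO 1, KO 2 and KO 3, against 9512, 8806 and 9584 CPM in EV 1, EV 2 and EV 3 (log2 change 0.20, SE 0.09, edgeR adjusted p = 0.199). The log2 change of miR-125b-2-3p was 0.19 (SE 0.07, edgeR adjusted p = 0.165), and that of miR-125b-5p, which chromosome 9 also encodes, was 0.21 (SE 0.07, edgeR adjusted p = 0.132). In TMM-scaled CPM these 3 of 11 were higher in every KO library than in any EV library, where groups did not overlap for 29.1% of all tested microRNAs, so nothing is read from their shared locus. With library size alone their log2 changes were 0.05 for miR-99a-5p, 0.03 for miR-125b-2-3p and 0.05 for miR-125b-5p. let-7c-5p and let-7c-1-3p of the same locus had log2 changes of 0.04 (SE 0.08) and 0.02 (SE 0.13). At the chromosome 9 locus of Mirlet7a-2, miR-100-5p had 0.05 (SE 0.08) and miR-125b-1-3p -0.02 (SE 0.09). At the chromosome 17 locus of Mirlet7e, miR-99b-5p had -0.07 (SE 0.12) and miR-125a-5p 0.05 (SE 0.10). The authors' deposited table of 78 microRNAs lists 0 let-7 or miR-98 members, and of these neighbours only miR-125b-5p, with the authors' log2 fold change of 0.19 and adjusted p of 0.0363.

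The tested microRNAs outside the family whose levels followed the summed guide arms most closely were miR-542-3p, miR-148a-3p and miR-872-5p. Likeness was the root mean square difference of log2 CPM, each centred on its own mean over the 6 libraries, among 113 microRNAs with a mean of at least 100 CPM. It was 0.05 for miR-542-3p, 0.05 for miR-148a-3p and 0.07 for miR-872-5p, beside a median of 0.16 over all 113.

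RefSeq gives the same seed to 2 further mouse names, let-7k and miR-1961. Neither name has a row in the counts, so neither could be analysed here. A row named let-7j lies outside the letters of the rule. Its RefSeq sequence is shown because it resembles let-7i-5p, with bases 2 to 8 in capitals.
let-7j: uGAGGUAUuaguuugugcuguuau
Over the 22 bases of let-7i-5p it differs by G8U alone, with the let-7i-5p base first. It had 17, 27 and 12 reads in KO 1, KO 2 and KO 3, against 22, 60 and 28 reads in EV 1, EV 2 and EV 3. The groups overlapped, EV 2 being the highest library (log2 change -0.93, SE 0.46, edgeR adjusted p = 0.257).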

How the data were processed

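Small-RNA libraries were made, per the labels' protocols, from Trizol RNA by NEBNext adaptor ligation at both ends and size selection on a gel. No molecular identifiers are mentioned, so PCR copies count as reads. Bowtie, mm10 and DESeq 1.8.3 are named per the submitters' processing notes. The sources used here do not say how reads matching several microRNAs were counted. The deposited counts are whole reads per mature microRNA. The deposited TPM values entered no test. The authors' deposited comparison table (normalized signal per group, log2 fold change, p-value and adjusted p-value) was read only for members and neighbours.

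Counts of KO were compared with EV by edgeR 4.0.16 (R 4.3.3) across all microRNAs, with TMM factors, filterByExpr (minimum count 10, total 15), the two-sided quasi-likelihood F test and Benjamini-Hochberg adjustment at 0.05, which is what called means. Arms were compared with limma 3.58.1 (voom, diffSplice). Scripts were tested on simulated counts. Alternatives were scaling by median-of-ratios factors, by library size alone or by library sizes without miR-21a-5p, DESeq2 1.42.0, limma-voom, no filter, at least 10 CPM in 3 libraries, a replicate block, leaving out EV 3 and KO 2, and each library in turn. All members are accounted for, and the neighbour list and likeness rule are as given in the text. Members, lists and alternatives were chosen with earlier results of these data known. No pair of replicates agreed within counting noise (smallest chi-square 9019 on 446 degrees of freedom). Host genes are from GENCODE vM21 (GRCm38, the same assembly as mm10).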

Additional observations from a re-analysis of the deposited data

How the results depend on the processing

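The 17 tested members were refitted under 15 alternatives. Of 250 log2 changes, 219 kept sign and side of the threshold, 28 changed sign and 3 became called. The main fit called no member, so no called member could change sign. Among the log2 changes that changed sign, the largest size was 0.22. The 3 calls were 1 guide arm (let-7f-5p) without EV 3 and KO 2, and 1 passenger arm (let-7f-1-3p) without the filter and with the replicate block. Over all tested microRNAs these fits called 88 of 470, 56 of 1028 and 34 of 460, in that order. The main fit called 35 of 460. Centred on their group means, same-numbered KO and EV libraries correlated at 0.23, -0.17 and -0.27, and differently numbered ones at -0.43 to 0.46. With 3 libraries a group, these values cannot decide whether a shared number pairs libraries. The replicate block changed no other call among the members. Arm differences and cluster neighbours had 0 calls throughout. With library size alone the log2 change was -0.097 for the summed guide arms, -0.053 for the summed passenger arms, -0.098 for let-7a-5p, -0.073 for let-7b-5p, -0.14 for let-7c-1-3p, -0.11 for let-7c-5p, -0.020 for let-7d-3p, -0.075 for let-7d-5p and -0.090 for let-7e-5p. With library sizes without miR-21a-5p it was -0.045 for the summed guide arms, -0.0021 for the summed passenger arms, -0.048 for let-7a-5p, -0.018 for let-7b-5p, -0.077 for let-7c-1-3p, -0.055 for let-7c-5p, -0.023 for let-7d-5p and -0.035 for let-7e-5p. Without the filter let-7c-1-3p was -0.0074. The 10 CPM filter gave let-7i-5p 0.0070, and leaving out EV 3 and KO 2 gave it 0.038 and let-7g-5p 0.0060. Leaving out 1 library at a time gave -0.11 to 0.029 for let-7a-1-3p, -0.012 to 0.11 for let-7a-5p, -0.013 to 0.081 for let-7c-5p, -0.081 to 0.013 for let-7g-5p, -0.23 to 0.22 for let-7i-3p (highest without EV 1) and -0.062 to 0.042 for let-7i-5p. It gave 0.033 (without EV 2) to 0.12 for the summed passenger arms. Causes were not tested. Passenger arms with under 20 reads a library limit what can be seen, as do 3 libraries a group.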
